A study of Mus musculus with 12 samples.

Results

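Retsat and Cyp26a1 encode 2 enzymes of vitamin A metabolism, and both were listed as lower in liver on a high-fat diet. The genes were chosen by symbol from the diet table of this series, which lists 336 genes that had passed the authors' own test between the diets, so their difference between diets is given as a description, with no test. The series holds liver RNA sequencing of 12 C57BL/6N mice, all PXR deficient, with 3 mice in each of 4 groups and 1 library per mouse. PXR, the pregnane X receptor, is a nuclear receptor that switches on drug-metabolizing genes. The groups used here are HFD mice, given a high-fat diet (HFD) for 18 weeks from 6 weeks of age with no further treatment named in the labels, and chow mice, given regular chow over the same time. A second table compares HFD mice injected intraperitoneally once a day for 4 days with the PXR ligand pregnenolone-16alpha-carbonitrile (PCN) at 50 mg/kg, against HFD mice injected with 30% DMSO in corn oil. Every mouse, controls included, carried the PXR deficiency, and neither the making of that line nor the sex of the mice is stated in the labels.

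Vitamin A reaches the liver as retinyl esters from the diet. Hepatocytes take these up in chylomicron remnants and release retinol from them inside the cell, and stellate cells store most of it again as esters. Retinol is oxidized to retinal and on to retinoic acid, a ligand of the nuclear receptor RAR. RAR binds together with the nuclear receptor RXR to direct repeats of a short core motif and turns genes on. Retsat, retinol saturase, is an enzyme of the endoplasmic reticulum that reduces a double bond of all-trans-retinol to give 13,14-dihydroretinol. It has been reported as a target of PPARgamma in fat cells and as a factor that supports activity of the glucose-sensing factor ChREBP in mouse liver. Cyp26a1 is the cytochrome P450 that hydroxylates retinoic acid for clearance. Its transcription rises with retinoic acid itself, through retinoic acid response elements near its start, so it is widely used as a readout of retinoic acid signalling.

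The sequences just before the 2 genes are shown. The promoter window searched for Cyp26a1 holds a repeat of the kind to which RAR and RXR bind, and that searched for Retsat does not. Retsat (ENSMUSG00000056666) lies on chromosome 6 from 72598475 to 72608425 and Cyp26a1 (ENSMUSG00000024987) on chromosome 19 from 37697798 to 37701536, both on the plus strand of GRCm38 as annotated in GENCODE M21. The longest Retsat transcript has 11 exons and codes for 609 residues, and that of Cyp26a1 has 7 exons and codes for 497 residues. The bases below are from RefSeq on GRCm38.p6, 5′ to 3′ on the plus strand, and end at the base before the annotated gene: chr6:72598352-72598474 for Retsat and chr19:37697558-37697797 for Cyp26a1. These bases are the part of each searched window that lies before the annotated gene. The rest of each window was searched too but is not shown, and for Retsat it is the larger part. Capitals mark the core motifs of a direct repeat.
Retsat: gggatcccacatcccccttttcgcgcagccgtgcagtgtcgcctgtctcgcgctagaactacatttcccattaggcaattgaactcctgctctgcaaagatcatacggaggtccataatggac
Cyp26a1: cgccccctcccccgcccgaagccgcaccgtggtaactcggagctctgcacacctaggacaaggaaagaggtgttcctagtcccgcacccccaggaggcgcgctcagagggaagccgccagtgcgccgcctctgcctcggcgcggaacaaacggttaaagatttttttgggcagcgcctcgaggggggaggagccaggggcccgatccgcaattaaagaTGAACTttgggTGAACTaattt
The capitals in the Cyp26a1 promoter are a pair of core motifs in the same orientation, 5 bases apart, at chr19:37697776-37697792, from 32 to 16 bases before the RefSeq start. Read on the opposite strand, the element is as follows.
Cyp26a1 repeat, minus strand: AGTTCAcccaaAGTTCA
The search took AGGTCA as a core motif, with AGTTCA as an accepted form, GGGTCA as a further form and GGTTCA as the last, in any pairing of the same orientation, on both strands, in windows from 250 bases before to 50 bases after each start. With 5 bases between the core motifs, a match was found in 32 of 32851 promoter windows (0.0974%). Of the genes lower on HFD, 84 had a window in that table, and 1, Cyp26a1, held the repeat. With 1 to 4 bases between them, neither Retsat nor Cyp26a1 had a match, so none overlapped the marked repeat, and between 0.0396% and 0.268% of all windows did. A match says only that these letters stand there.

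Retsat was an abundant liver transcript, and its level was lower in the HFD mice. After each mouse's counts were divided by its size factor from the authors' table, the normalized counts were 12228 in HFD mouse 659, 9406 in mouse 669 and 6841 in mouse 696, against 13874 in chow mouse 670, 23171 in mouse 695 and 18980 in mouse 707. The groups did not overlap, but the gap was narrow: the lowest chow mouse stood 1.13-fold above the highest HFD mouse, while the mice within HFD spanned 1.79-fold and those within chow 1.67-fold. Retsat averaged 9492 ± 2695 in HFD mice and 18675 ± 4656 in chow mice (SD, n = 3 each), 1.97-fold lower on HFD, or a log2 ratio of -0.98. The authors' deposited table gives a log2 fold change of -0.83 with a standard error of 0.21 and an adjusted p of 0.00825 from their DESeq2 test. These are the values on which the gene was selected. By mean count Retsat ranked 4 among the 336 listed genes, and by deposited fall it ranked 67 of the 121 lower genes, whose median log2 fold change was -0.86.

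Cyp26a1 was a low-count transcript with the larger relative difference. The raw counts were 67, 48 and 76 reads in HFD mice 659, 669 and 696, against 163, 244 and 111 reads in chow mice 670, 695 and 707. After division by the size factors these were 60.5, 51.7 and 66.8 in HFD mice, against 159, 234 and 134 in chow mice. The HFD mice lay close together, within 1.29-fold, and every chow mouse stood at least 2.0-fold above the highest HFD mouse. The mean was 59.7 ± 7.62 in HFD mice and 176 ± 52.1 in chow mice (SD, n = 3 each), so Cyp26a1 stood at 33.9% of its chow level, a log2 ratio of -1.56. The authors' deposited table lists it at a log2 fold change of -1.25 (SE 0.23), with an adjusted p of 2.04e-05 from DESeq2, again the values that chose the gene. It ranked 13 of the 121 lower genes by deposited fall and 242 of the 336 listed genes by mean count. For both genes the deposited fold is smaller in size than the log2 ratio of means, and the reason was not tested. Ranks and medians of deposited folds hold on that scale only.

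**Figure D1:**
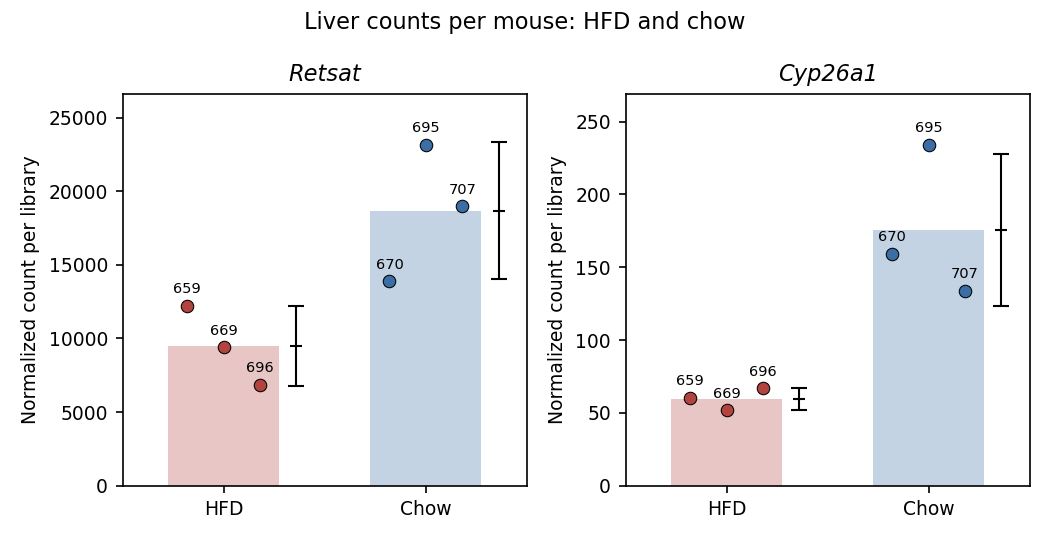
Normalized counts of Retsat and Cyp26a1 in each mouse (points, with mouse numbers), with the group mean (bar) and SD (error bar beside it), for 3 HFD and 3 chow livers. For Retsat, HFD mouse 659 at 12228 comes near chow mouse 670 at 13874, while for Cyp26a1 the HFD mice, up to 66.8, stay well under the chow mice, from 134.

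The precision differed between the genes. At 48 reads, the 95% exact Poisson interval of Cyp26a1 in HFD mouse 669 ran from 38.1 to 68.5 normalized counts, wider than the range of the HFD group. These intervals cover counting error only. For Retsat, with 7780 to 24137 reads per mouse, the counting interval of HFD mouse 659 was 12023 to 12436, narrow beside the spread over the 3 HFD libraries. With 1 library per mouse, differences between mice and between library preparations cannot be told apart. The coefficient of variation of Retsat was 28.4% in HFD mice and 24.9% in chow mice. That of Cyp26a1 was 12.8% in HFD mice and 29.7% in chow mice.

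The mice were not ordered alike for both genes. Chow mouse 695 had the highest value of each, 23171 for Retsat and 234 for Cyp26a1. The lowest chow value was that of mouse 670 for Retsat and of mouse 707 for Cyp26a1. In the HFD group, mouse 696 had the lowest Retsat and the highest Cyp26a1. Per kilobase of annotated exon, the level of Retsat was 2684 ± 762 normalized counts in HFD mice and 5280 ± 1316 in chow mice, and that of Cyp26a1 was 30.1 ± 3.84 in HFD mice and 88.7 ± 26.3 in chow mice (SD, n = 3 each). Retsat thus exceeded Cyp26a1 by 89.2-fold on HFD and by 59.5-fold on chow, as ratios of these group means.

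**Figure D2:**
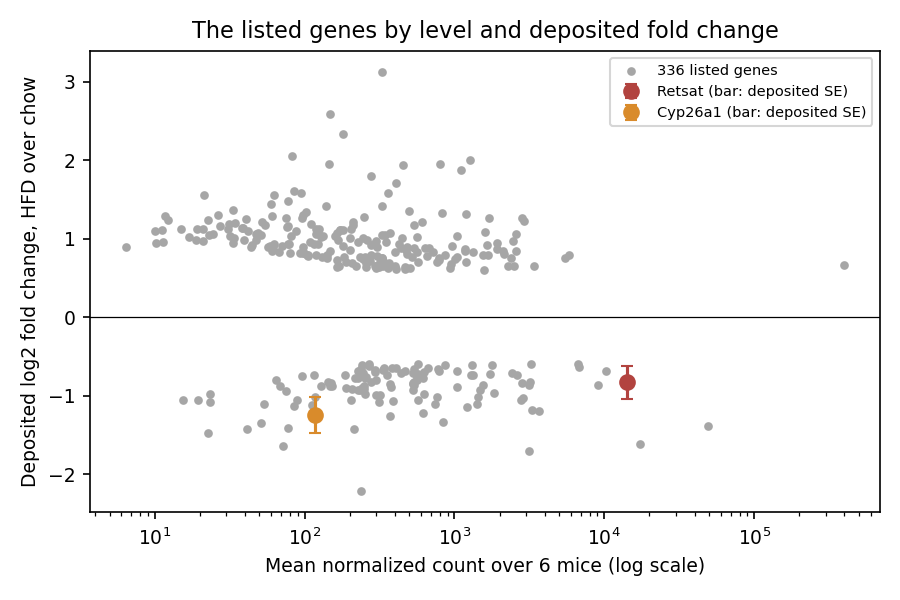
Deposited log2 fold change, HFD over chow, against the mean normalized count over 6 mice (log axis) for the 336 listed genes, with Retsat and Cyp26a1 marked with their deposited standard errors. Retsat, at -0.83, is among the most abundant lower genes, and Cyp26a1, at -1.25, is among the less abundant ones; no listed gene lies between -0.6 and 0.6 because the table holds only genes past that limit.

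The direction of both genes was the same under every scaling and with any 1 mouse left out. Since the groups did not overlap for either gene, leaving out 1 mouse could not reverse the direction. The log2 ratio ran from -1.20 to -0.79 for Retsat and from -1.72 to -1.30 for Cyp26a1 as each mouse was left out in turn. For Retsat the values nearest to 0 came without HFD mouse 696 (-0.79) and without chow mouse 695 (-0.79), and for Cyp26a1 without chow mouse 695 (-1.30). TMM scaling over the listed genes gave -1.62 for Retsat and -2.19 for Cyp26a1. It moved the median over all listed genes by -0.63 as well. In a refit with edgeR's quasi-likelihood method and the authors' size factors, the log2 fold change was -0.98 (SE 0.28) for Retsat and -1.56 (SE 0.28) for Cyp26a1.

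**Figure D3:**
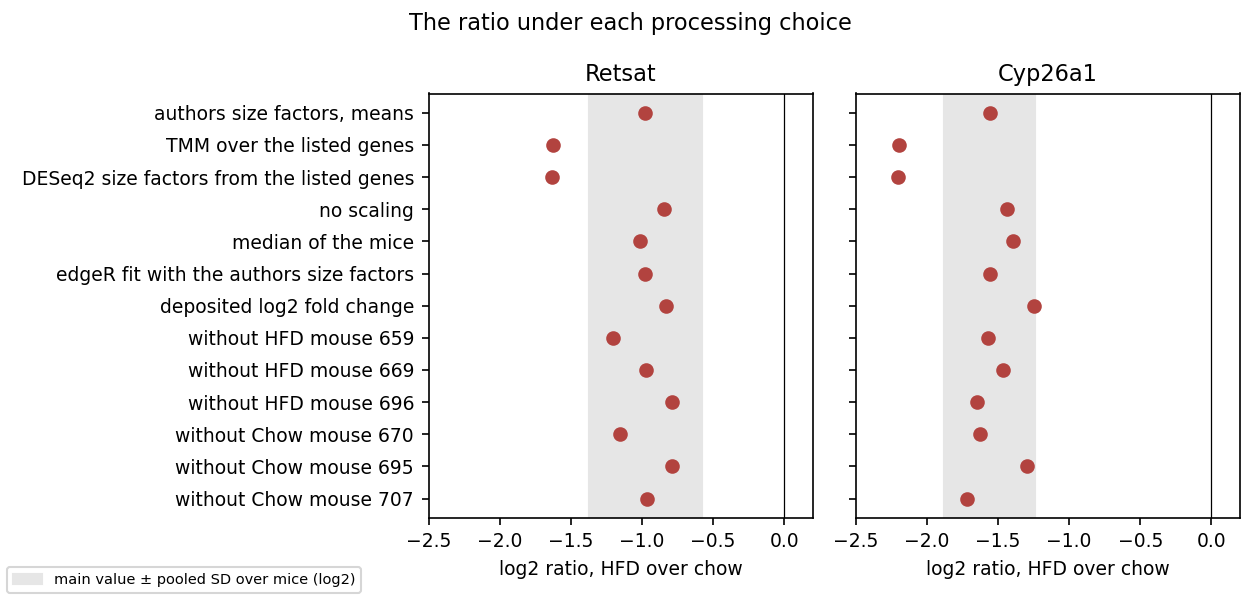
The log2 ratio, HFD over chow, of Retsat and Cyp26a1 under each processing choice (points), with the main value and 1 pooled SD over mice as a grey band. Every point lies below 0; those outside the band are the scalings computed from the listed genes alone, -1.62 and -1.63 for Retsat and -2.19 and -2.20 for Cyp26a1.

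Counts of Retsat may include, or may lack, reads where another annotation overlaps it. Gm45053, a minus-strand gene of the annotation's TEC class, lies inside Retsat, from 72603004 to 72605502 on chromosome 6, and shares 650 exon bases with it. Of the 50-base windows of the longest Retsat transcript, 7.52% occurred in a transcript of another gene, in each case Gm45053. The labels do not state whether counting used strand or how reads over both genes were treated. Reads of the pair therefore cannot be told apart, and the effect on the Retsat count is unknown. Elmod3 begins 61 bases before Retsat on the minus strand and Tgoln1 ends 6 bases after it. Of the 1742 windows of Cyp26a1, 0 occurred in another gene, including its paralog Cyp26c1, which lies 4399 bases before it. Of the 13 annotated genes within 50 kb of either gene, 0 were among the listed genes. With 0.861% of all genes tested called higher and 0.484% lower, nothing is read from this count.

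Among 77 genes chosen here for the retinoid pathway, Retsat and Cyp26a1 were the 2 listed. Genes outside this choice were not counted, so listed genes with other roles in retinoid handling may be missed. Of these 77 genes of retinoid uptake, storage, oxidation, breakdown and response, 0 were called higher on HFD and 2 lower. The calls used the authors' adjusted p under 0.05 and a log2 fold change past 0.6 in size. Over the estimated 24980 genes the authors tested, 0.861% were called higher and 0.484% lower, and since the choice of the 2 genes rests on this contrast, nothing is read from the count. Other tools run on these same counts are no independent evidence either. An edgeR quasi-likelihood fit with the authors' scaling, adjusted over all genes tested, called 0 of the 77 genes (2 at an unadjusted p under 0.05). Only the listed genes could be fitted and ranked, and the adjustment used the estimated number of all genes tested. Genes without a fit could raise the ranks, so p-values adjusted this way are upper bounds. In contrast, edgeR with TMM and a DESeq2 refit, both scaled on the listed genes, called 2. By role, the 12 genes of uptake and binding (such as Rbp4, the plasma retinol carrier, and Stra6, its receptor), the 10 of ester storage (such as Lrat, which makes retinyl esters), the 3 of carotenoid cleavage, the 23 dehydrogenases and reductases acting on retinol and retinal, the 7 retinal-oxidizing enzymes (such as Aldh1a1), the 9 receptors and cofactors (such as Rara and Rxra) and the 8 further retinoic acid responsive genes had 0 members among those rows. Of the 4 genes of retinoic acid breakdown, 1 was listed, Cyp26a1. Levels of genes that are not among the rows held were not analysed here.

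Of the 312 listed genes compared, Acot1 and Plin5 followed Retsat most closely over the 6 mice. Listed genes with predicted or clone symbols were left out of this comparison. Likeness was the root mean square difference of log2(normalized count + 1) after subtracting each gene's mean over the 6 mice. It was 0.148 for Acot1 and 0.187 for Plin5, against a median of 0.400 over the 115 lower genes compared, and all these genes share the diet difference on which they were selected. Acot1, a cytosolic acyl-CoA thioesterase, had 748, 799 and 512 normalized counts in HFD mice 659, 669 and 696, against 1056, 1634 and 1505 in chow mice 670, 695 and 707. Plin5, a lipid droplet coat protein, had 1271, 702 and 749 in HFD mice, against 1328, 2133 and 1579 in chow mice. As for Retsat, mouse 670 was the lowest chow mouse and mouse 695 the highest for both genes, and HFD mouse 696 was the lowest for Acot1 but not for Plin5. The next genes were Tmc7 (0.213), Slc30a10 (0.226), a manganese exporter, and Cpeb4 (0.232), an RNA-binding protein.

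For Cyp26a1 none of the 312 genes compared came as close. Its low counts add counting error to this measure, so the larger distance need not mean a looser match. The nearest were Nfil3 (0.265), a transcriptional repressor tied to the circadian clock, Clpx (0.293), a mitochondrial unfoldase, Sdr9c7 (0.298), a short-chain dehydrogenase/reductase, Gstp-ps (0.304), a glutathione transferase pseudogene, and Tuba4a (0.310), an alpha-tubulin. The median over the 115 lower genes compared was 0.470. Nfil3 had 256, 212 and 219 normalized counts in HFD mice 659, 669 and 696, against 641, 640.3 and 363 in chow mice 670, 695 and 707. Sdr9c7 had 547, 367 and 313 in the same HFD mice, against 898, 1559 and 752 in the chow mice. Like Cyp26a1, Nfil3, Sdr9c7 and Clpx were lowest in mouse 707 among the chow mice, while Gstp-ps and Tuba4a were lowest in mouse 670. Among the HFD mice, Cyp26a1 was highest in mouse 696, where Sdr9c7 was lowest. The ranking depends on the measure: by Pearson correlation over the same 6 mice, 4 of the 5 genes nearest to Retsat were shared, and 0 of the 5 nearest to Cyp26a1.

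**Figure D4:**
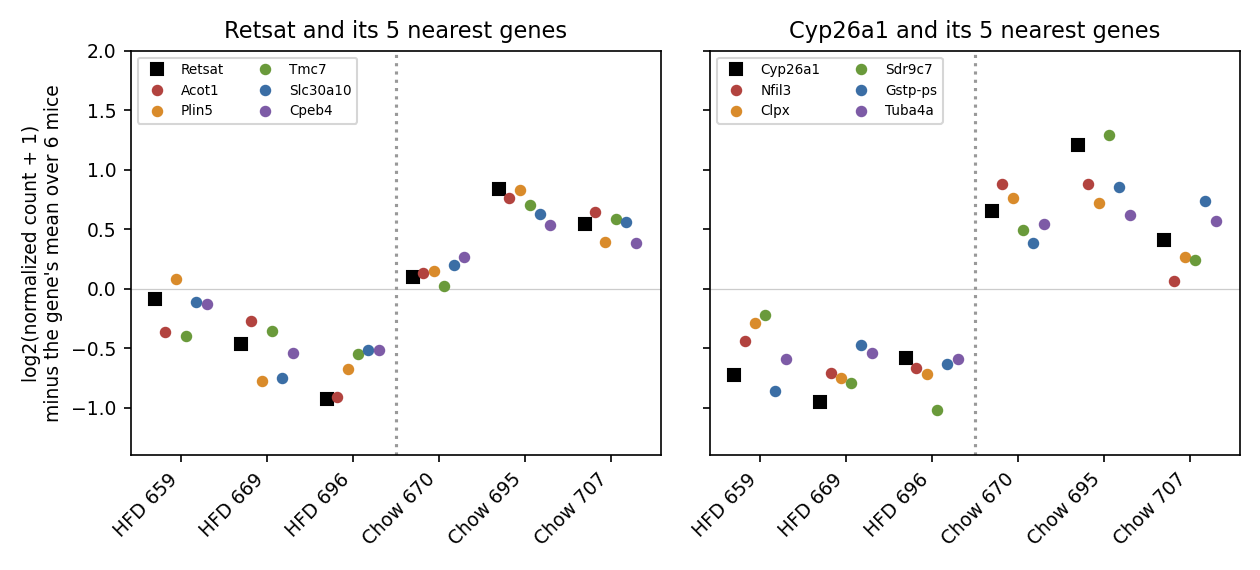
Log2(normalized count + 1) minus each gene's mean over the 6 mice, for Retsat and its 5 nearest genes and for Cyp26a1 and its 5 nearest genes (squares mark Retsat or Cyp26a1, circles the others; points within a mouse are spread sideways). Acot1, 0.148 from Retsat on average, lies close to it in most mice, while the genes nearest to Cyp26a1 stand 0.265 or more from it.

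Some genes of related lists in liver lipid metabolism were listed as well, against 0.861% called higher and 0.484% called lower over all genes tested. Of 31 PPARalpha targets and fatty acid oxidation genes, 5 were called lower and 0 higher, with a median deposited log2 fold change of -1.26 over those listed. They were Ehhadh (-1.61), Cyp4a14 (-1.38), Cyp4a31 (-1.26) and the genes nearest to Retsat, Acot1 (-0.89) and Plin5 (-0.74). Of 13 PPARgamma targets, among them Mogat1 (1.56), an acyltransferase of triglyceride synthesis, and Cd36 (1.27), which encodes a fatty acid transporter, 5 were higher and 0 lower, with a median of 0.97. Of 19 targets of ChREBP and SREBP-1, 8 were higher and 0 lower, with a median of 0.80, including Srebf1 (1.32), which encodes SREBP-1, and Txnip (0.84), a glucose-induced inhibitor of thioredoxin. The medians over all listed genes were 0.94 for the 215 higher and -0.86 for the 121 lower genes. Retsat was lower, as were the listed PPARalpha targets, while the listed PPARgamma targets and the listed ChREBP or SREBP-1 targets were higher. Retsat itself, reported as a PPARgamma target in fat cells, was left out of the PPARgamma list. The 3 lists share no gene, though a gene can be a target of several factors. The split between the lists therefore depends on how they were drawn. All these genes were listed for their difference between the diets. The part of any of these factors in the level of Retsat was not tested. The calls in the 3 lists depended on the tool. Adjusted over all genes tested, the edgeR fit with the authors' scaling called 0 genes of the 3 lists (all 18 listed at an unadjusted p under 0.05). With TMM or DESeq2 scaling on the listed genes, 5 PPARalpha targets were called lower, and 0 PPARgamma and 0 ChREBP or SREBP-1 targets were called higher, with 2 of each at an unadjusted p under 0.05 and log2 fold changes down to 0.05.

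A few markers of stellate cells and macrophages were listed as higher on HFD, against the 0.861% called higher over all genes tested. Of 18 stellate cell markers, 4 were listed, all higher on HFD (Col1a1, Col1a2, Col3a1 and Vim), and their summed normalized counts were 1671 to 3262 in HFD mice and 633 to 732 in chow mice. The edgeR fit with the authors' scaling, adjusted over all genes tested, called 1 of them, Col3a1 (4 at an unadjusted p under 0.05). Vim stood at a log2 fold change of 0.06 with TMM over the listed genes. The vitamin A storage marker Lrat was not among them. Of 13 macrophage markers, 2 were listed, Itgax and Mmp12, with sums of 71.2 to 119 in HFD mice and 12.5 to 25.3 in chow mice. After that adjustment, edgeR and the DESeq2 refit called 0 of these macrophage markers (2 at an unadjusted p under 0.05). The stellate cell and macrophage sums cover only markers listed for a difference between the diets. Their direction was fixed by that selection, so they do not measure cell content. Of 24 pericentral hepatocyte genes, with 0.484% called lower over all genes tested, 2 were lower (Avpr1a at -2.22 and Cyp1a2 at -0.86) and 2 higher (Slc13a3 at 0.93 and Lect2 at 0.73). Of 16 periportal genes 1 was lower, Cdh1 (-0.90). Lists of 10 general hepatocyte markers, 9 endothelial, 7 cholangiocyte and 10 lymphocyte markers had 0 members among the listed genes, so the tissue label could not be checked against them. In whole liver, fewer cells of a type and less RNA per cell cannot be told apart, and the part of these markers in the values of Retsat and Cyp26a1 was not tested.

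In the PCN table, which lists 33 genes, Retsat and Cyp26a1 had 0 rows, so their levels with PCN and with vehicle were not analysed here.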

How the data were processed

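The deposited tables hold raw read counts per gene and mouse for selected genes, with columns of the authors' test results beside them (a mean, a log2 fold change with its error, and raw and adjusted p-values), per the file headers. The submitters' processing notes name HISAT2, HTSeq, DESeq2 and the build GRCm38 (mm10), without versions, roles or settings. Log2 fold changes of the listed rows are 0.6 or more in size, and their adjusted p reaches 0.0474 (diet) or 0.0955 (PCN). The counts of listed genes summed to 547431 to 920106 per mouse (diet) and 34989 to 103036 (PCN); total depth is unknown. Size factors were solved from the authors' mean column (largest gap 0.00509 counts), and the number of genes they tested from the Benjamini-Hochberg relation. Nr1i2, the PXR gene, was not analysed here, and the genotype was not checked.

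Calls rest on the adjusted p of the authors, whose test alone covered every gene. edgeR 4.0.16 (quasi-likelihood, tested on simulated data) and DESeq2 1.42.0 in R 4.3.3 were alternatives, fitted to the listed genes only. Their p-values were adjusted over the listed genes or for the estimated number of all genes tested. In the second case ranks came from the listed genes alone, so the adjusted values are upper bounds. Python 3.11.15 was used for the rest. Named were Retsat and Cyp26a1, listed genes of the retinoid lists, the 5 nearest named genes to each, listed neighbours within 50 kb, and up to 4 of each other list by adjusted p; Plin5 as a list member falls outside the last limit and is named as a nearest gene. Results of the PCN comparison are not reported here. The members and lists were chosen with earlier results of these data known. Replicates are separate mice per the labels.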

Additional observations from a re-analysis of the deposited data

How the results depend on the processing

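Both genes stayed lower on HFD under every alternative run. They were selected as lower on these counts, and with groups that did not overlap, leaving out 1 mouse could not reverse the direction. The log2 ratio of Retsat was -0.98; it became -1.62 with TMM over the listed genes and -1.63 with DESeq2 size factors from the listed genes, and ran from -1.20 to -0.79 with single mice left out. That of Cyp26a1 was -1.56, and became -2.19 and -2.20 with the same scalings, with -1.72 to -1.30 over single mice left out. These scalings centre the folds on genes selected as changed. Of the 77 genes chosen for the retinoid pathway, 2 were called lower on HFD. The count was 1 with a fold limit of 1 on the log2 scale (Cyp26a1). It was 0 in the edgeR fit scaled as the authors did and adjusted over all genes tested. That fit had both genes under an unadjusted p of 0.05. With edgeR and TMM and with the DESeq2 refit the count was 2, but both are scaled on the listed genes, mostly higher on HFD, which shifts lower genes further down. With single mice left out, the count ran from 0 to 2: edgeR called 2 each time when adjusted over the listed genes, which were selected for this difference, and 0 each time when adjusted over all genes tested, with an adjusted p of 0.565 to 1 for Retsat and 0.226 to 0.524 for Cyp26a1. The p-values adjusted over all genes tested are upper bounds, because only the listed genes were fitted and ranked. Since the genes were chosen on these counts, none of these calls adds evidence. Of the same 77 genes, 0 were called higher under each alternative. The fits with single mice left out and adjusted over all genes, the other tools for the other lists and the Pearson ranking of nearest genes were chosen after seeing the data. No paired analysis was possible because the mice of different groups share no number.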
